A study of Mus musculus with 9 samples.

Results

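A set of 10 long noncoding RNAs (lncRNAs) was followed in NMuMG cells, an immortalized murine mammary gland line, by RNA sequencing: Malat1 and Neat1, the snoRNA hosts Gas5, Snhg1, Snhg8 and Snhg12, the imprinted antisense transcript Kcnq1ot1, and Pvt1, Miat and Norad. They were chosen by name, and 9 of the 10 were listed by that gene symbol. Norad was listed under an older name, 2900097C17Rik, which RefSeq gives as its synonym at the same locus. The 10 genes are 10 of 52459 gene symbols in the 9 libraries and have 80 annotated transcripts.

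The study asked how the transcriptome changes when the lncRNA EPR (BC030870) is stably overexpressed, and whether this needs the small peptide that EPR encodes. All 9 libraries came from NMuMG cells stably transfected with a pBICEP-CMV-2-based vector, in which a CMV promoter drives the insert, and selected with G418 as transfectant pools in serum-containing medium with insulin. The 3 mock libraries (203, 204 and 205) carried the empty vector, the 3 EPR libraries (206, 207 and 208) carried EPR, and the 3 EPRSTOPE libraries (209, 210 and 211) carried EPR whose second codon, for glutamic acid, was changed to a stop codon. The study's methods call the libraries of a condition biological triplicates, and neither they nor the labels say whether these came from separate pools, so p-values measure the spread between these libraries. Mock, EPR and EPRSTOPE therefore differ in the insert and also in the pool that carries it, and the pool and the insert cannot be told apart.

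Malat1 is a very abundant nuclear RNA found at nuclear speckles, where splicing factors gather, and Neat1 is the architectural RNA of paraspeckles, nuclear bodies built on its long isoform. Gas5 and the Snhg genes carry small nucleolar RNAs (snoRNAs) in their introns, and their spliced exons are in general removed by nonsense-mediated decay. Kcnq1ot1 silences imprinted neighbours on the paternal chromosome, Pvt1 lies next to Myc, Norad binds Pumilio proteins, and Miat is best known from nervous tissue, retina and heart.

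Some sequences show what sets these RNAs apart. The mature 3′ ends of Malat1 and Neat1 hold a genomically encoded A-rich tract instead of an ordinary poly(A) tail, which folds with U-rich stretches into a stabilizing triple helix. The last 100 bases of the long Neat1 transcript (20771 nt) end with that tract, and the same arrangement lies in the full-length Malat1 transcript (6983 nt) at bases 6592 to 6691, before an annotated extension of 292 bases. Capitals mark runs of at least 4 T and the A-rich tract around AAAAGCAAA.
Malat1: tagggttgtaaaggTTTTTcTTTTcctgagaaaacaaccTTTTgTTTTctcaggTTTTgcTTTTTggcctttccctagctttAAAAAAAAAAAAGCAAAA
Neat1: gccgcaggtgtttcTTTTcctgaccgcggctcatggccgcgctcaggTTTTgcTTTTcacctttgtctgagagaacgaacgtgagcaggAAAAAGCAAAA
The letters AAAAGCAAA, searched on the transcript strand only, occurred in 8.47% of the 24356 annotated transcripts of at least 3000 nt, and once more inside the long Neat1 transcript, at the end of bases 5264 to 5363.

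The snoRNA hosts are known for starting with a run of pyrimidines, the mark of transcripts whose translation follows cell growth. The 30 bases around the RefSeq start sites on GRCm38.p6 (chr1:161035151-161035180 on the plus strand for Gas5, chr19:8723472-8723501 plus for Snhg1, chr3:123508322-123508351 minus for Snhg8, chr4:132308663-132308692 plus for Snhg12, chr19:5802658-5802687 minus for Malat1) differ in this, and are shown with the pyrimidine run that begins at the start site in capitals.
Gas5: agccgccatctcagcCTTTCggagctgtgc
Snhg1: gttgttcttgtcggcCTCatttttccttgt
Snhg8: gcaccgttcagaagtCTCTTTggctgcgat
Snhg12: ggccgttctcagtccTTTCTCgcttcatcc
Malat1: ctccgggctctgcgtCaggcattcaggcag
The run was 6 bases in Snhg8 and Snhg12, 5 in Gas5 at this start site and 0 at its other one, 3 in Snhg1 and 1 in Malat1. Miat, which is not counted among the hosts, also had a run of 6, and Kcnq1ot1 had 0. A long run was thus not particular to the hosts in this set. A run of at least 5 pyrimidines followed 4.44% of the 32851 start sites in that table.

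Norad is known for repeated Pumilio elements. The letters TGTANATA occur 11 times on the transcript strand of Norad (4915 nt) between bases 651 and 3533, against 0 times in full-length Malat1 4 times in long Neat1 and 18 times in Kcnq1ot1, which is far longer (93092 nt in the annotation the sequences come from). As many elements or more were found in 0.0328% of the transcripts of at least 3000 nt. The closest pair, at bases 2442 to 2458, is shown with the elements in capitals.
Norad: ctatgcTGTATATAtTGTACATActggac

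The files held between 5972457 and 11876435 estimated counts per library, and 15370 genes passed the filter of at least 1 CPM (counts scaled to the library total) in at least 3 libraries. The overexpressed gene BC030870 had 0, 0 and 2 counts in the mock libraries, 271, 214 and 256 in the EPR libraries and 28, 39 and 33 in the EPRSTOPE libraries, so the transgene was about 5.90-fold higher in EPR than in EPRSTOPE (log2 2.56 ± 0.20 SE, adjusted p 1.99e-06). Of the epithelial markers, Krt8 and Krt18, keratins of simple epithelia, were abundant in all conditions, whereas the adhesion molecule Cdh1 had a mean of 0.843 CPM in mock against 556 in EPR and 403 in EPRSTOPE, and Epcam had no count in mock. All 7 tested epithelial markers of 12 were called higher in EPR than in mock (15.2% of all tested genes were), and 4 of the 7 in EPRSTOPE than in mock (15.6% of all). Epcam passed the filter only through the EPR libraries, which fixed its direction. Cdh1 and Ocln, called higher with either insert, averaged below 1 CPM in mock (0.843 and 0.315). They passed the filter through the libraries where they were high, so the direction of their calls was largely set by the filter. Cldn3, Cldn4, Cldn7, Esrp1 and Grhl2 were not tested and averaged below 1 CPM in every condition, EPR included. The summed level of the list ranged from 3693 to 4159 CPM in mock, 9503 to 10611 in EPR and 10688 to 11025 in EPRSTOPE. Of 9 tested mesenchymal markers of 13, 7 were called lower in EPR than in mock (12.9% of all tested genes were), while in EPRSTOPE 4 were lower (12.4% of all) and 1 was higher. Acta2, among those called lower, averaged 10.1 CPM in mock and 0.801 in EPRSTOPE, so its direction there was largely set by the filter. The summed mesenchymal level was 4083 to 4246 CPM in mock, 2231 to 2459 in EPR and 3982 to 4321 in EPRSTOPE. Krt8, Krt18 and Krt19 made up most of the epithelial sum, and Vim and Fn1 most of the mesenchymal sum, so the sums hide the other markers. In EPRSTOPE, Vim averaged 3138 CPM against 2634 in mock, whereas Cdh2 averaged 158 against 330. The summed level of 9 markers of immune, endothelial and fat cells was 13.3 to 14.9 CPM in mock and at least 15.6 CPM in the other libraries, of which the endothelial marker Pecam1 gave the most, with Adipoq at 0 in all 9. The part of these shifts in the lncRNA results was not tested. These are bulk libraries, in which fewer cells of a type and less RNA per cell cannot be told apart.

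Of the 10 lncRNAs, 9 were tested. Miat had 1 count in mock library 203 and 0 in the other libraries, where 3 counts, the limit that a count of 0 allows, correspond to between 0.253 and 0.490 CPM of the library total (counting error only), so it was not detectable at this depth. The remaining genes spanned more than 3 orders of magnitude per length. In TPM, a scaled abundance that divides by transcript length, the mock order was Malat1 (1888 ± 372 SD, n = 3), Gas5 (672 ± 17.7), Snhg1 (358 ± 45.4), Snhg12 (116 ± 7.91), Snhg8 (96.2 ± 22.4), Neat1 (41.1 ± 0.619), Norad (38.2 ± 2.26), Pvt1 (17.8 ± 0.608) and Kcnq1ot1 (1.51 ± 0.0629). The mock libraries of Snhg12 and Snhg8 overlapped, and no other neighbours in that order did. The order was the same in EPR. In EPRSTOPE, Norad (61.8, 55.9 and 40.5 TPM) came before Neat1 (42.0, 67.2 and 40.7 TPM), with overlapping libraries.

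**Figure D1:**
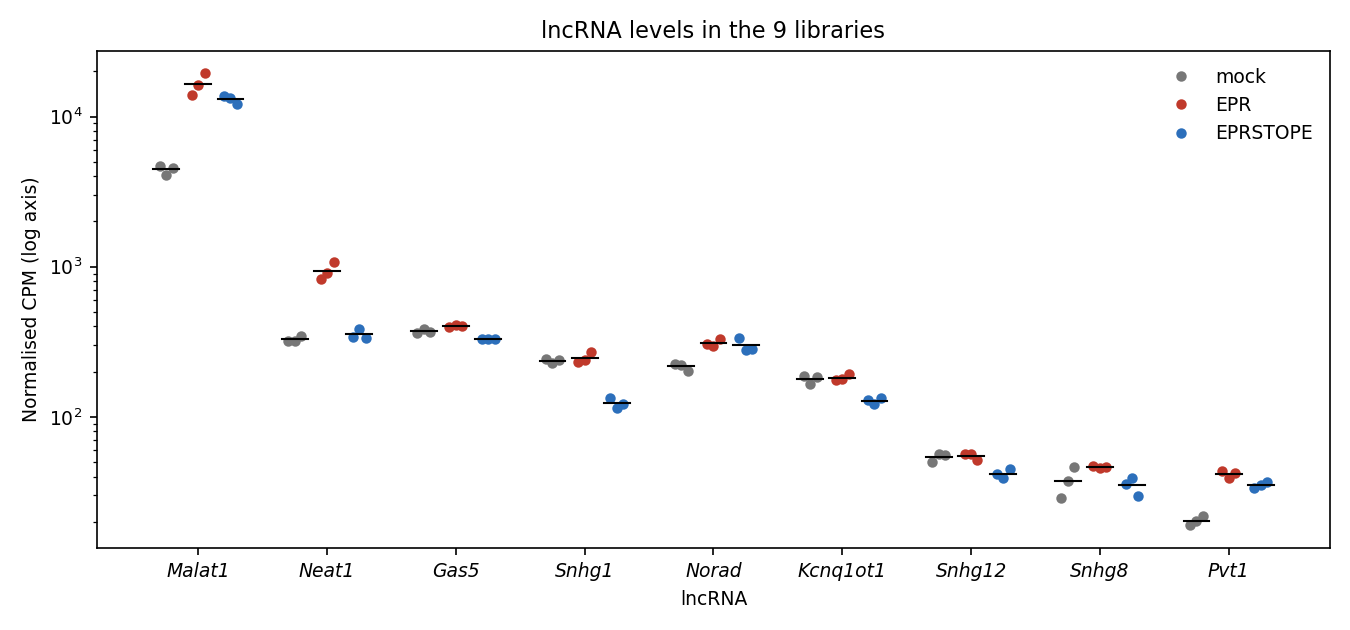
Normalised CPM (log axis) of the 9 tested lncRNAs in each library, with mock in grey, EPR in red, EPRSTOPE in blue and the mean of 3 libraries as a bar. Malat1 lies at 12123 or more in the EPR and EPRSTOPE libraries and at most at 4716 in mock, Neat1 is highest in the EPR libraries, and Snhg1 is lowest in EPRSTOPE.

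A gene was called changed at an adjusted p below 0.01 with a log2 fold change beyond 0.5. Against mock, EPR cells had 4 of the 9 tested lncRNAs higher (Malat1, Neat1, Pvt1 and Norad) and 0 lower, where 15.2% of all tested genes were called higher and 12.9% lower. EPRSTOPE cells had 2 higher than mock (Malat1 and Pvt1) and 1 lower (Snhg1), where 15.6% of all tested genes were called higher and 12.4% lower. Compared directly, EPR cells had 3 higher than EPRSTOPE cells (Neat1, Snhg1 and Kcnq1ot1) and 0 lower, where 6.86% of all tested genes were called higher and 6.35% lower. The fitted value was above 0 in all 9 lncRNAs in the direct comparison, with a median of 0.40 and a range from 0.06 to 1.40, against 50.7% of all tested genes above 0. Malat1, Neat1 and Snhg1 lie on chromosome 19, where 90.2% of tested genes were above 0 in this comparison. The median log2 fold change of the 9 was 0.28 in EPR and -0.12 in EPRSTOPE against mock, and that of all tested genes was -0.01 and -0.04. The EPR and EPRSTOPE comparisons share the mock libraries, so their values are given side by side.

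**Figure D2:**
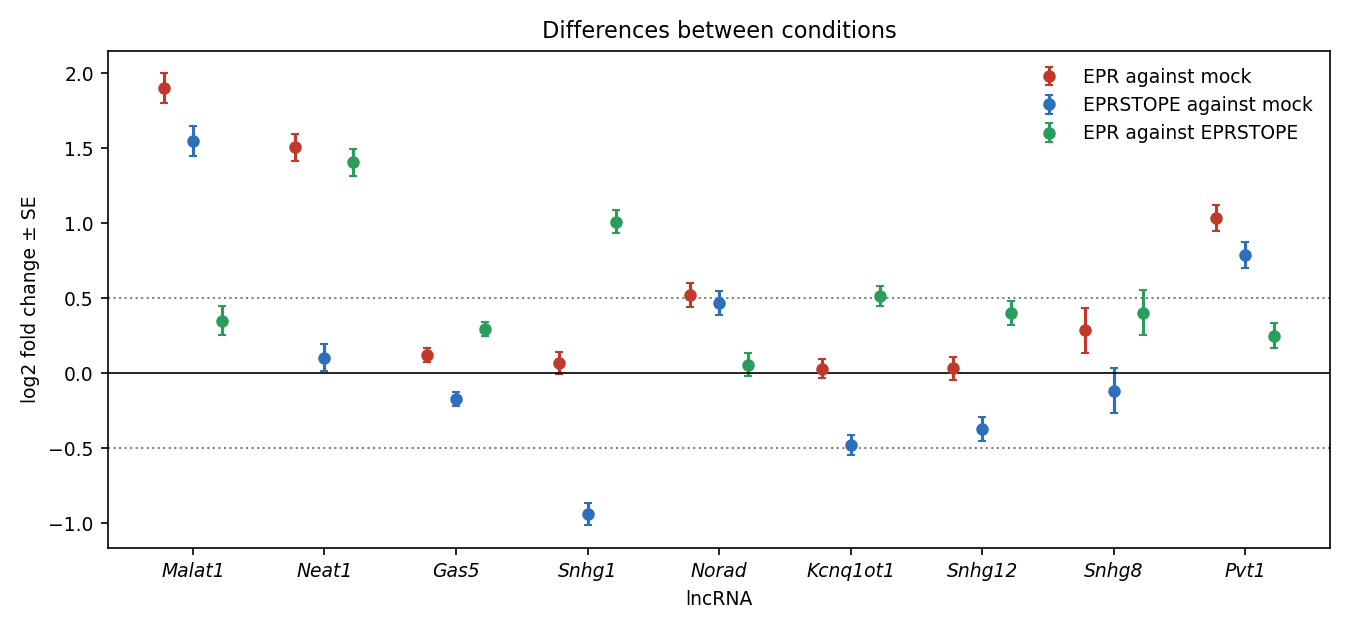
Log2 fold change with its SE for the 9 tested lncRNAs in the 3 comparisons, with dotted lines at the threshold of 0.5. Malat1 and Pvt1 are above the upper line against mock with either insert, Neat1 with EPR, and Snhg1 is below the lower line with EPRSTOPE.

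Malat1 rose most of the 9 in both comparisons with mock. Its normalised counts were 4716, 4069 and 4551 CPM in mock, 14021, 16272 and 19397 in EPR and 13625, 13239 and 12123 in EPRSTOPE. Each EPR and EPRSTOPE library lay above each mock library, and each EPR library lay above each EPRSTOPE library. Malat1 was 3.73-fold higher in EPR than in mock (log2 1.90 ± 0.10 SE, adjusted p 2.07e-08) and 2.92-fold higher in EPRSTOPE than in mock (log2 1.55 ± 0.10, adjusted p 9.62e-08). The difference between EPR and EPRSTOPE did not pass the test (log2 0.35 ± 0.10, adjusted p 0.0171). Malat1 took 0.416 to 0.508% of all estimated counts in mock, 1.37 to 1.94% in EPR and 1.16 to 1.31% in EPRSTOPE, and leaving it out of the totals moved no other lncRNA across the threshold.

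At the transcript level, the full-length Malat1 transcript held between 85.0 and 95.0% of the estimated counts of the gene in each library. It was at 403, 442 and 407 TPM in mock, 1456, 1939 and 2017 in EPR and 1622, 1687 and 1045 in EPRSTOPE. It was called higher in both against mock (log2 2.04 ± 0.13, adjusted p 6.56e-05 in EPR, and log2 1.66 ± 0.13, adjusted p 0.000148 in EPRSTOPE). Both calls were lost with limma-voom (log2 1.99, adjusted p 0.0492 in EPR, and log2 1.63, adjusted p 0.12 in EPRSTOPE). Short annotated fragments of 556 and 656 nt inside the gene took most of its remaining reads, and because TPM divides by length they weigh heavily in the summed TPM. With counts scaled from TPM, the gene-level change was therefore smaller, at log2 1.43 in EPR and 1.09 in EPRSTOPE, and still called. Gm37376, an unspliced locus annotated on the opposite strand inside Malat1, was at 38.4, 49.0 and 65.3 CPM in mock, 50.3, 166 and 290 in EPR and 42.9, 0 and 218 in EPRSTOPE. It was not called in any comparison, and since how the strand was used in quantification is not given in the sources used here, its reads and those of Malat1 cannot be told apart.

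Neat1 lies 22036 bp from Malat1 on chromosome 19 and rose in EPR cells. It was at 322, 321 and 348 CPM in mock, 829, 911 and 1076 in EPR and 341, 386 and 337 in EPRSTOPE. Each EPR library lay above each library of the other conditions, while the mock and EPRSTOPE libraries overlapped. Neat1 was 2.84-fold higher in EPR than in mock (log2 1.51 ± 0.09 SE, adjusted p 6.51e-08) and 2.65-fold higher in EPR than in EPRSTOPE (log2 1.40 ± 0.09, adjusted p 4.05e-07). In EPRSTOPE against mock the value was log2 0.10 ± 0.09 (adjusted p 0.376), which became -0.020 when library totals alone were used for scaling. The ratio of Malat1 to Neat1, which no scaling factor changes, was 14.6, 12.7 and 13.1 in mock, 16.9, 17.9 and 18.0 in EPR and 40.0, 34.3 and 35.9 in EPRSTOPE, with no overlap between the conditions. With counts scaled from TPM, in which the short Neat1 transcripts weigh more, EPR against EPRSTOPE was log2 0.80 (adjusted p 0.00544) and EPRSTOPE against mock 0.43 (adjusted p 0.0489).

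Neat1 is made as a short and a long RNA from the same start. The short transcript (3004 nt) begins 2 bases into the long one (20771 nt), lacks 166 bases of it and ends at its base 3172, while paraspeckles need the remainder of the long form. The primers that the study designed for Neat1 lie in the shared part, where they bound an 82-base product in both (bases 2053 to 2134 of the long and 1885 to 1966 of the short transcript), and are shown because they count both forms together.
Neat1 forward primer: gggacttgtgggagaaagca
Neat1 reverse primer: ttccaggcacaatcctcacc

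The long Neat1 transcript was at 7.57, 9.34 and 8.50 TPM in mock, 24.4, 31.8 and 31.4 in EPR and 9.67, 9.84 and 6.53 in EPRSTOPE. The short one was at 19.4, 24.4 and 22.6 TPM in mock, 51.9, 49.8 and 59.5 in EPR and 32.4, 57.3 and 32.3 in EPRSTOPE. The long form in EPRSTOPE overlapped mock, whereas the short form of every EPRSTOPE library lay above every mock library. The long form was called higher in EPR than in mock (log2 1.69 ± 0.11 SE, adjusted p 6.63e-05) and than in EPRSTOPE (log2 1.80 ± 0.11, adjusted p 0.000237). The short form was called higher in EPR than in mock (log2 1.28 ± 0.18, adjusted p 0.00372), a call lost on leaving out any mock replicate or EPR replicate 206 or 208 (adjusted p 0.0144 to 0.0189), and its value in EPRSTOPE against mock (log2 0.79 ± 0.18, adjusted p 0.0299) and between EPR and EPRSTOPE (log2 0.49 ± 0.18, adjusted p 0.284) did not pass. The share of summed Neat1 TPM on the long form was 20.6% ± 2.47 (SD, n = 3) in mock, 34.6% ± 4.33 in EPR and 17.9% ± 4.48 in EPRSTOPE. That sum includes another annotated transcript of 1030 nt. It was at 14.7, 6.67 and 10.0 TPM in mock, 4.24, 0 and 0 in EPR and 0, 0.0128 and 1.85 in EPRSTOPE. The shares, and the short-form values, therefore depend on how reads were divided between the transcripts. By the two-sided exact permutation test, 3 against 3 libraries cannot give a p below 0.1. In that exact permutation test the smallest value was reached by EPR against mock (13.9 percentage points, p = 0.1) and against EPRSTOPE (16.7 points, p = 0.1), and EPRSTOPE against mock differed by -2.74 points (p = 0.4). As a share of estimated counts, which weights the long form by its length, the values were 73.2% ± 0.552 in mock, 79.9% ± 2.37 in EPR and 61.8% ± 5.89 in EPRSTOPE, with no overlap between conditions.

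**Figure D3:**
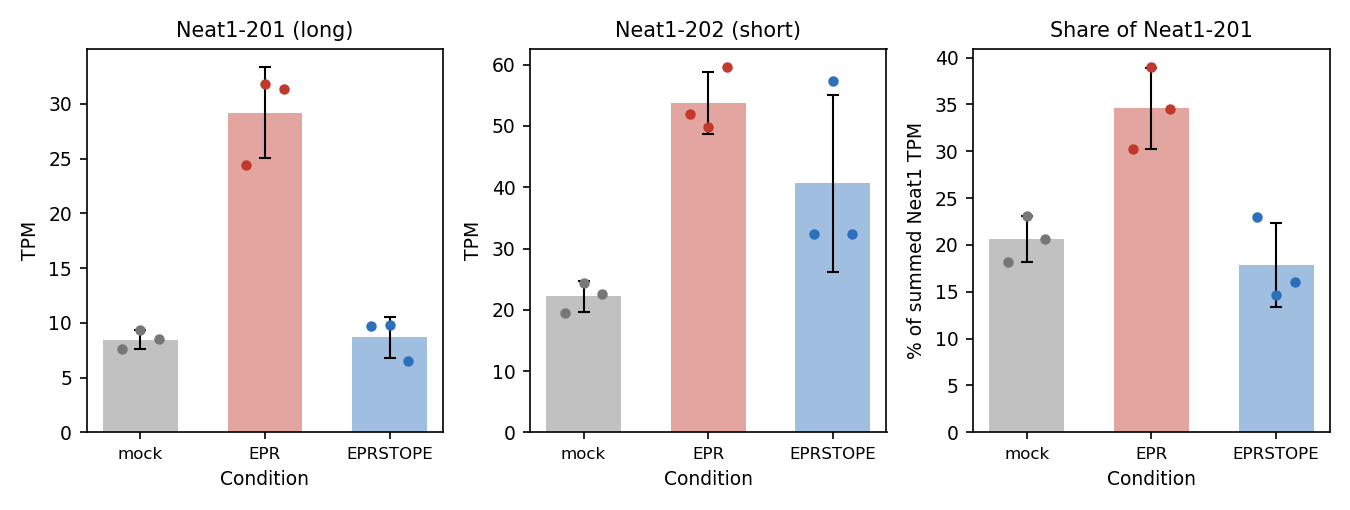
TPM of the long and the short Neat1 transcript and the share of the long one in the summed Neat1 TPM, as points for the 3 libraries of each condition, with bars for the mean and error bars for the SD. The long form averages 29.2 TPM in EPR against 8.47 in mock and 8.68 in EPRSTOPE, whereas the short form of EPRSTOPE (40.7) lies between mock (22.2) and EPR (53.8).

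Over the 60 tested transcripts of the 10 genes, 5 passed upward and 0 downward in EPR against mock (4.07% of all 45412 tested transcripts were called in either direction), 2 upward and 0 downward in EPRSTOPE against mock (4.64% of all), and 2 upward and 0 downward in EPR against EPRSTOPE (0.854% of all). The Kcnq1ot1 transcript was called higher in EPR than in EPRSTOPE (log2 0.54, adjusted p 0.00665). Leaving out any single library lost that call (adjusted p 0.0109 to 0.0317). The Norad transcript of 4915 nt was called higher in EPR than in mock (log2 0.58, adjusted p 0.00585). Its call was lost on leaving out any mock or EPR replicate, or EPRSTOPE replicate 210 (adjusted p 0.011 to 0.03). The biological coefficient of variation was 0.709 for transcripts against 0.132 for genes, so values of single transcripts are the less precise.

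Pvt1, a transcript of the Myc locus, rose with either insert. It was at 18.95, 20.2 and 21.8 CPM in mock, 43.6, 39.3 and 42.1 in EPR and 33.7, 35.0 and 36.6 in EPRSTOPE, with no overlap between conditions. It was 2.05-fold higher in EPR (log2 1.03 ± 0.09 SE, adjusted p 1.11e-06) and 1.72-fold higher in EPRSTOPE (log2 0.78 ± 0.09, adjusted p 1.31e-05) than in mock, and EPR against EPRSTOPE was log2 0.25 ± 0.08 (adjusted p 0.0436). Of its 8 tested transcripts, Pvt1-203 (2798 nt) was called higher against mock with either insert, from TPM near 0 in every mock library to means of 2.08 ± 1.09 (SD) in EPR and 2.26 ± 0.944 in EPRSTOPE. It passed the filter only through the EPR and EPRSTOPE libraries, which fixed the direction of both calls. Both calls were lost with limma-voom (adjusted p 0.0814 and 0.0829) and without EPR replicate 207 (0.0152 and 0.0103) or EPRSTOPE replicate 210 (0.0107 and 0.012), and that in EPR also without EPR replicate 208 (0.0114) or mock replicate 205 (0.011). Myc, which encodes a growth-promoting transcription factor and lies 47612 bp before Pvt1, had log2 values of -0.06 in EPR and 0.38 in EPRSTOPE against mock and was not called.

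Norad, an abundant cytoplasmic lncRNA, moved less. It was at 223, 223 and 203 CPM in mock, 305, 294 and 332 in EPR and 335, 279 and 282 in EPRSTOPE. Every EPR and EPRSTOPE library lay above every mock library, and EPR and EPRSTOPE overlapped. Norad was 1.44-fold higher in EPR than in mock (log2 0.52 ± 0.08 SE, adjusted p 0.000163), just past the fold threshold, and 1.38-fold higher in EPRSTOPE (log2 0.47 ± 0.08, adjusted p 0.000407), just short of it. The call in EPR was lost without TMM scaling (log2 0.44), without mock replicate 205 (0.47) and without EPR replicate 208 (0.48), and the call in EPRSTOPE was made without EPRSTOPE replicate 210 (0.51) or 211 (0.51). None of 3 Norad-binding proteins listed was called in any comparison.

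Among the snoRNA hosts, Snhg1 fell in EPRSTOPE cells. It was at 241, 229 and 237 CPM in mock, 233, 238 and 271 in EPR and 133, 114 and 121 in EPRSTOPE. Every EPRSTOPE library lay below every other library, and mock and EPR overlapped. Snhg1 was 1.92-fold lower in EPRSTOPE than in mock (log2 -0.94 ± 0.07 SE, adjusted p 6.37e-07) and 2.01-fold higher in EPR than in EPRSTOPE (log2 1.01 ± 0.07, adjusted p 1.23e-06), and EPR against mock was log2 0.07 ± 0.07 (adjusted p 0.476), or -0.013 without TMM scaling. Snord22, the snoRNA inside Snhg1 (chr19:8725866-8725991, plus strand, GRCm38) that was tested, was at 43.5, 27.0 and 25.9 CPM in mock, 34.1, 34.0 and 29.2 in EPR and 14.1, 21.7 and 10.5 in EPRSTOPE. It was called lower in EPRSTOPE than in mock (log2 -1.03 ± 0.25, adjusted p 0.00453). The ratio of Snhg1 to Snord22 overlapped between all conditions, and because retained-intron transcripts of Snhg1 contain the snoRNA, reads of the snoRNA and of its host cannot be told apart.

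Gas5, Snhg12 and Snhg8 were not called in any comparison. Gas5 was at 361, 383 and 367 CPM in mock, 394, 408 and 405 in EPR and 328, 329 and 327 in EPRSTOPE, with no overlap between conditions but small steps. Its value was log2 0.12 ± 0.05 SE (adjusted p 0.0568) in EPR and -0.17 ± 0.05 (adjusted p 0.00956) in EPRSTOPE against mock, and 0.29 ± 0.05 (adjusted p 0.000627) between EPR and EPRSTOPE. Snhg12 was at 49.9, 56.1 and 55.4 CPM in mock, 56.6, 56.8 and 51.9 in EPR and 41.3, 39.1 and 44.6 in EPRSTOPE, where every EPRSTOPE library was lowest. Its value was log2 -0.37 ± 0.08 (adjusted p 0.00211) in EPRSTOPE against mock and 0.40 ± 0.08 (adjusted p 0.00235) in EPR against EPRSTOPE, inside the fold threshold. Snhg8 was at 28.7, 37.4 and 46.6 CPM in mock, 47.0, 45.5 and 46.1 in EPR and 35.9, 39.3 and 29.7 in EPRSTOPE, close together in EPR and apart in mock, and the largest of its 3 values was log2 0.40 ± 0.15 (adjusted p 0.0649) between EPR and EPRSTOPE.

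Most annotated transcripts of Gas5 (20 of 25) and Snhg1 (14 of 18) retain an intron. Such transcripts held 88.9% ± 1.80 (SD, n = 3) of Gas5 counts in mock, 82.8% ± 4.90 in EPR and 82.6% ± 1.04 in EPRSTOPE. For Snhg1 these shares were 68.6% ± 4.54, 63.7% ± 7.09 and 61.9% ± 2.97, with overlap between conditions. Over whole libraries, retained-intron transcripts took 5.41 to 6.83% of counts in mock, 4.80 to 5.14% in EPR and 3.97 to 5.42% in EPRSTOPE, and the part of this difference in the host results was not tested. Of the snoRNA genes annotated inside the hosts, 7 of 9 in Gas5, 6 of 8 in Snhg1, 1 of 4 in Snhg12 and 0 of 1 in Snhg8 had no count in any library, and the other 3 tested ones (Snora16a and Snora44 in Snhg12, Snora24 in Snhg8) averaged at most 2.50 CPM in a condition and were not called. The entries counted in Gas5 include Mir5117, which carries a microRNA name and had no count in any library.

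Kcnq1ot1 was at 186, 165 and 185 CPM in mock, 177, 177 and 192 in EPR and 129, 122 and 133 in EPRSTOPE. Mock and EPR overlapped, and every EPRSTOPE library was lower. Kcnq1ot1 was called 1.43-fold higher in EPR than in EPRSTOPE (log2 0.51 ± 0.07 SE, adjusted p 0.000123), a call lost without EPR replicate 208 (log2 0.48), without EPRSTOPE replicate 210 (0.48) and with counts scaled from TPM (0.52, adjusted p 0.0241). In EPRSTOPE against mock it was 1.40-fold lower (log2 -0.48 ± 0.07, adjusted p 8e-05), short of the fold threshold, and was called without mock replicate 204 (-0.54) or EPRSTOPE replicate 211 (-0.51). With counts scaled from TPM this value was -0.13. EPR against mock was log2 0.03 ± 0.07 (adjusted p 0.744), -0.053 without TMM scaling and 0.39 (adjusted p 0.0384) with counts scaled from TPM. Of 11 genes of the surrounding imprinted domain, 8 were tested, and 4 were called higher in EPR (15.2% of all tested genes were) and 3 in EPRSTOPE than in mock (15.6% of all), with 0 lower. Of the called genes, Slc22a18, Phlda2, Trpm5 and Tspan32 averaged below 1 CPM in mock and passed the filter through the libraries where they were high. The direction of their calls was thus largely set by the filter, and only Cd81 was called without this limit. Slc22a18, an organic cation transporter, had no count in the mock libraries and 11.5 ± 0.751 CPM (SD) in EPR and 14.9 ± 2.74 in EPRSTOPE, at least 24.7-fold and 32.1-fold higher than 3 counts in the shallowest mock library. Cd81, a tetraspanin, averaged 91.0 ± 5.94 CPM (SD) over the mock libraries, 302 ± 8.32 over EPR (log2 1.73 ± 0.06 SE, adjusted p 5.99e-10) and 219 ± 2.41 over EPRSTOPE (log2 1.27 ± 0.06, adjusted p 6.73e-09). Phlda2, an imprinted growth regulator, averaged 0.417 CPM over mock and 2.82 over EPR (log2 2.62 ± 0.62, adjusted p 0.00406), and Tspan32, another tetraspanin, averaged 0.0975 CPM over mock and 1.96 over EPRSTOPE (log2 4.01 ± 0.68, adjusted p 0.00039). Tspan32 was also lower in EPR than in EPRSTOPE (log2 -3.19 ± 0.61, adjusted p 0.00186). The nearest tested genes on either side of Kcnq1ot1 were Trpm5, a cation channel gene (log2 1.56 in EPR and 1.08 in EPRSTOPE, the latter not called), and Gm37364 (0.03 and 0.07).

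Malat1, Neat1 and Snhg1 lie on chromosome 19 (chr19:5795690-5802672 minus, chr19:5824708-5845478 minus and chr19:8723475-8726443 plus on GRCm38), where EPRSTOPE values were low in general. Over the 477 tested genes of that chromosome the median log2 fold change was -0.55 in EPRSTOPE against mock, with 206 called lower and 30 higher, and 0.55 in EPR against EPRSTOPE, against -0.02 in EPR against mock. A change carried by the chromosome and one particular to a gene on it cannot be told apart by these values alone. Around Malat1 and Neat1, Ehbp1l1 (-0.64), Sssca1 (-1.14) and Dpf2 (-0.76), a chromatin remodelling subunit, were called lower in EPRSTOPE than in mock. Frmd8, 4224 bp beyond Neat1, had log2 0.42 in EPR and -0.38 in EPRSTOPE and was not called against mock. Ltbp3, which binds latent TGF-β, was called higher in EPR (log2 1.13, adjusted p 1.65e-07) and was at 0.25 (adjusted p 0.0167) in EPRSTOPE. Malat1 was called higher in EPRSTOPE than in mock, and 0 of the other genes plotted beside it, Neat1 included, were.

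Snhg1 starts beside Slc3a2, the heavy chain of an amino acid transporter, which begins 106 bp away on the opposite strand. Slc3a2 had log2 -0.04 in EPR and -0.19 (adjusted p 0.0166) in EPRSTOPE against mock. The ratio of Slc3a2 to Snhg1 was 0.865, 0.935 and 0.864 in mock, 0.914, 0.863 and 0.714 in EPR and 1.31, 1.66 and 1.53 in EPRSTOPE, where every library exceeded the rest. On the other side, Nxf1, the mRNA export receptor (-0.61), and Taf6l (-1.04) were called lower in EPRSTOPE, and Wdr74 (-0.37), Stx5a (-0.41) and Polr2g (-0.49) were not, while in EPR against mock Stx5a was called higher (0.56) and Taf6l lower (-0.51). On the near side beyond Slc3a2 the next tested gene, Pla2g16, was 1134930 bp away (log2 -3.00, called lower in EPRSTOPE), followed by Atl3 (-0.14, not called), Rtn3 (-0.58, called) and 2700081O15Rik (-1.23, called, and also called lower in EPR, at -0.61).

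**Figure D4:**
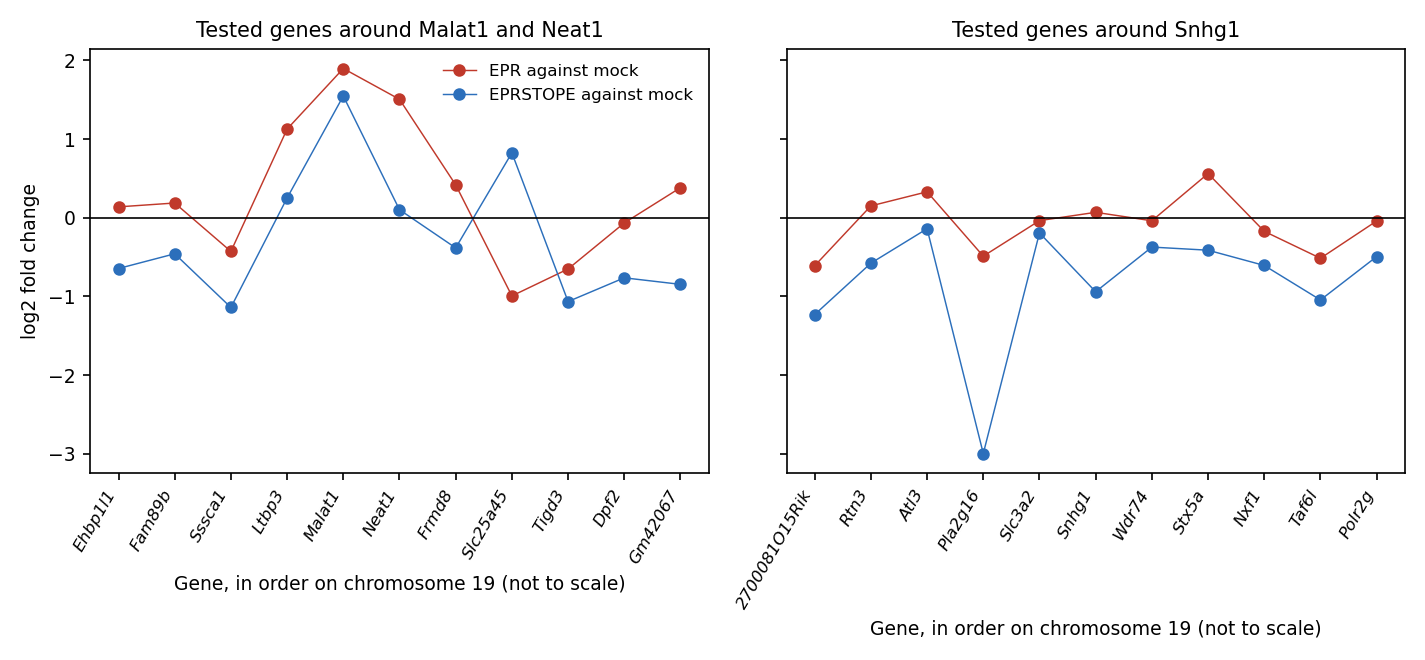
Log2 fold change against mock of tested genes near Malat1 and Neat1 (left) and Snhg1 (right), in their order on chromosome 19 and not to scale, in EPR (red) and EPRSTOPE (blue). EPRSTOPE values lie below EPR values at all genes shown but Slc25a45, which averaged 0.677 CPM, and Malat1 is the one gene of the left panel called higher in EPRSTOPE.

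For the other lncRNAs, the nearest tested genes had the following values against mock. Of all tested genes, 15.2% were called higher and 12.9% lower in EPR, and 15.6% and 12.4% in EPRSTOPE. Zbtb37, which overlaps Gas5, had log2 -0.11 in EPR and -0.47 in EPRSTOPE and was not called. Beside Snhg12, Trnau1ap, a selenocysteine factor, was called lower in EPR (-0.54) with -0.37 in EPRSTOPE, and Taf12 was not called (-0.17 and 0.19). Beside Norad, Cnbd2 (0.05 and 0.0035) and Epb41l1 (-0.04 and 0.05) were not called. Beside Snhg8, Ndst3, a heparan sulphate enzyme at 3.94 CPM in mock, was called lower in EPR (-2.57) and EPRSTOPE (-4.81), and Prss12 was not called (0.63 and 0.50). Ndst3 averaged below 1 CPM with either insert (0.684 with EPR, 0.149 with EPRSTOPE) and passed the filter through the mock libraries. The direction of both Ndst3 calls was thus largely set by the filter. Tpst2, next to Miat, had 0.06 and 0.39 and was not called. Serpinc1 before Gas5, Gsdmcl-ps beyond Pvt1 and Gm42488 beside Miat averaged at most 1.80 CPM and were not called.

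The genes whose profile over the 9 libraries was closest to that of Malat1, out of 9322 candidates with a mean of at least 10 CPM, lay on other chromosomes. By the root mean square difference of centred log2 values they were Bmf (0.12), a pro-apoptotic BH3-only protein, Gm29408 (0.12), Gsap (0.13), Ripk4 (0.14), a kinase of keratinocyte differentiation, and Kdm7a (0.14), a histone demethylase. Bmf averaged 13.5 ± 0.668 CPM (SD, n = 3) over the mock libraries, 48.8 ± 4.56 over EPR and 44.5 ± 1.36 over EPRSTOPE. For Neat1 the closest were Shtn1 (0.15), Acsl4 (0.16), an acyl-CoA synthetase for polyunsaturated fatty acids, Pdcd4 (0.16), a translation inhibitor, Cdkn2b (0.17), a cell-cycle inhibitor, and Aldh3b1 (0.18). Shtn1, Pdcd4 and Aldh3b1 are also on chromosome 19. Acsl4, on chromosome X, averaged 80.8 ± 2.17 CPM over mock, 236 ± 24.5 over EPR and 108 ± 3.98 over EPRSTOPE. These likenesses are descriptions over 9 libraries.

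Proteins that work with these RNAs were counted in the same way, and their counts stand against 15.2% of all tested genes called higher and 12.9% lower for EPR, and 15.6% and 12.4% for EPRSTOPE, in the comparisons with mock. On chromosome 19, 206 of 477 tested genes were called lower in EPRSTOPE. Any members of these lists on that chromosome were not set apart, and its part in the counts was not tested. Of 16 paraspeckle proteins, 1 passed upward and 2 downward in EPR against mock, and 1 upward and 4 downward in EPRSTOPE against mock. Pspc1, a core paraspeckle protein, rose from a mean of 20.7 CPM over mock to 30.2 ± 0.796 (SD) over EPR (log2 0.55 ± 0.11 SE, adjusted p 0.00114) and 33.9 ± 1.64 over EPRSTOPE (log2 0.72 ± 0.11, adjusted p 0.000162). Taf15, an RNA-binding protein of the FET family, fell (log2 -0.75 in EPR and -0.85 in EPRSTOPE), as did Dazap1 (-0.57 and -0.63) and, in EPRSTOPE, Cpsf7 (-0.90, against -0.34 in EPR, not called). Cpsf7, a subunit of cleavage factor I, was also higher in EPR than in EPRSTOPE (log2 0.56 ± 0.06, adjusted p 3.16e-05). Of 16 nuclear speckle proteins, Clk1, a kinase of splicing factors, was higher (log2 0.53) and Pnn lower (-0.59) in EPR, and 0 were called in EPRSTOPE, where these values were 0.35 and -0.39. The median log2 fold change was -0.16 in EPR and -0.22 in EPRSTOPE for the paraspeckle list and -0.19 and -0.10 for the speckle list, beside -0.01 and -0.04 for all tested genes.

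Of 14 tested genes for the 3′ end processing of Malat1 and Neat1, largely RNase P subunits, 1 rose and 5 fell in EPR against mock, and 1 rose and 2 fell in EPRSTOPE against mock, where 12.9% and 12.4% of all tested genes were called lower. Rpp30 had the largest fall, from 31.2 ± 4.85 CPM (SD) over mock to 17.0 ± 0.753 over EPR (log2 -0.88) and 11.7 ± 0.697 over EPRSTOPE (log2 -1.43). Pop4 rose with both inserts (0.62 in EPR and 0.88 in EPRSTOPE). Rpp14 (-0.79) and Rpp40 (-0.72) fell in EPR, with -0.34 and -0.57 in EPRSTOPE, not called. Pop5 fell in EPRSTOPE (-0.60), with -0.46 in EPR, not called. Pop1 (log2 0.70) and Rpp30 (0.55) were higher in EPR than in EPRSTOPE.

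Of 14 snoRNP proteins and assembly factors, 0 rose and 3 fell in EPR, and 2 rose and 3 fell in EPRSTOPE, beside the same shares of all genes (12.9% and 12.4% lower, 15.2% and 15.6% higher). Naf1, an assembly factor of H/ACA snoRNPs, fell from 29.6 ± 4.78 CPM (SD) over mock to 12.3 ± 2.79 over EPR (log2 -1.29) and 9.77 ± 0.748 over EPRSTOPE (log2 -1.60). Ruvbl1 (-0.59) and Dkc1 (-0.54), the pseudouridine synthase of these particles, fell in EPR, with -0.34 and -0.15 in EPRSTOPE, not called. In EPRSTOPE Nolc1 fell (-0.70) and Snu13 rose (0.83), with -0.29 and 0.38 in EPR, not called. Of 15 nonsense-mediated decay factors, 0 rose and 3 fell in EPR (Magoh at -0.66, Rnps1 at -0.65 and Smg5 at -0.52), and 0 rose and 2 fell in EPRSTOPE (Magoh at -0.78 and Smg5 at -0.68), against 12.9% and 12.4% of all tested genes lower. Rnps1 was at -0.38 in EPRSTOPE, not called. The medians of these lists were -0.35 and -0.14 for snoRNPs and -0.27 and -0.28 for decay factors, in EPR and EPRSTOPE.

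Other snoRNA hosts were compared with the 4 above. Of 14 tested, 0 rose and 3 fell in EPR (Snhg9 at log2 -1.85, Snhg3 at -0.87 and Snhg17 at -0.60) and 0 rose and 3 fell in EPRSTOPE (Snhg3 at -1.28, Snhg17 at -0.71 and Snhg5 at -0.58), against 12.9% and 12.4% of all tested genes lower, with medians of 0.06 and -0.40. Snhg9 was at -1.25 in EPRSTOPE and Snhg5 at -0.24 in EPR, neither called. Snhg3 averaged 41.2 ± 4.95 CPM (SD) over mock, 22.7 ± 1.08 over EPR and 17.1 ± 1.97 over EPRSTOPE. Dancr (log2 0.73 ± 0.13, adjusted p 0.00143) and Zfas1 (log2 0.63 ± 0.07, adjusted p 2.38e-05) were called higher in EPR than in EPRSTOPE, with 0 lower. Of all tested genes, 6.86% were called higher and 6.35% lower in that comparison. Translation of transcripts that start with a pyrimidine run follows cell growth, so proliferation markers are given beside the hosts. Of 7 proliferation markers, 6 fell and 1 rose in EPR, and 4 fell and 1 rose in EPRSTOPE, against mock (12.9% and 12.4% of all tested genes were called lower). Mki67 averaged 1045 ± 40.7 CPM (SD) over mock, 429 ± 20.2 over EPR and 193 ± 6.64 over EPRSTOPE, and the cell-cycle inhibitor Cdkn1a, the one list member that rose, averaged 7.29 ± 0.843, 96.9 ± 5.47 and 79.8 ± 4.47 CPM. The summed level of the list was 2697 to 2779 CPM in mock, 1391 to 1453 in EPR and 1023 to 1130 in EPRSTOPE, and its part in the lncRNA values was not tested.

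**Figure D5:**
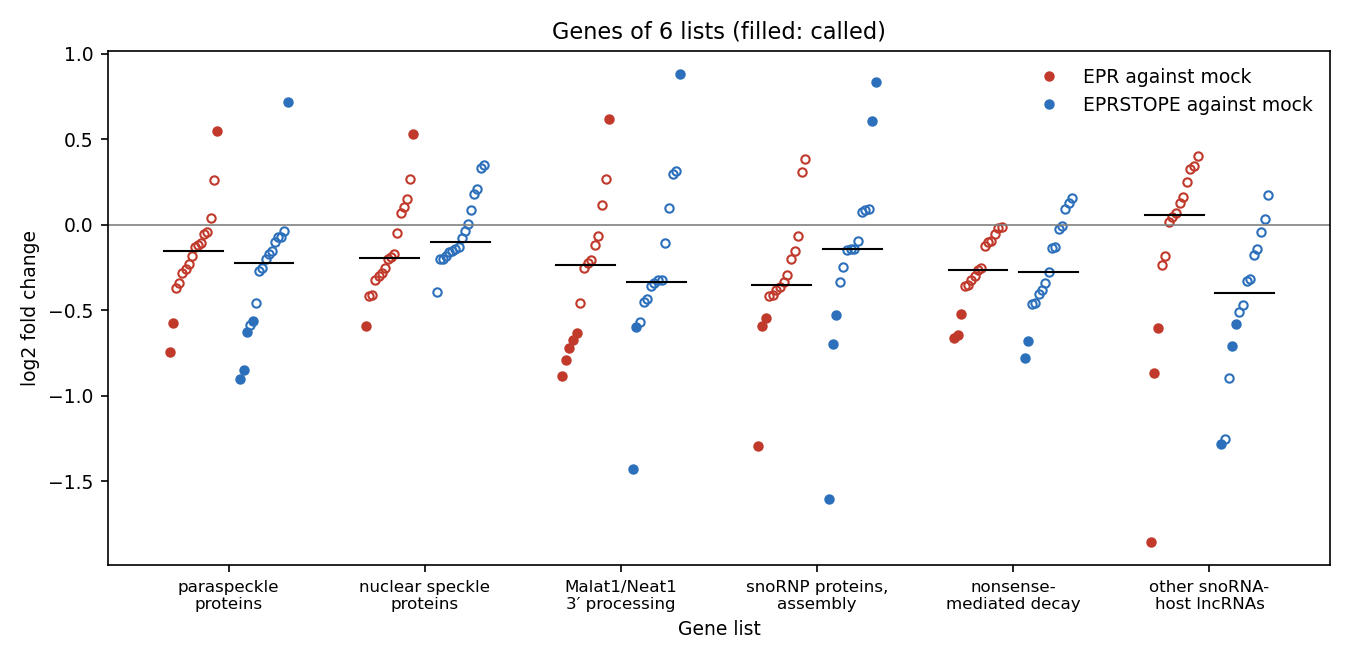
Log2 fold change against mock of the tested genes of 6 lists, in EPR (red) and EPRSTOPE (blue), with filled points for called genes and a black line at each median. Medians lie between -0.40 and 0.06, and the lowest single values belong to Snhg9 in EPR and Naf1 in EPRSTOPE.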

How the data were processed

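The authors prepared stranded total RNA libraries and, per the labels, sequenced paired reads of 75 bases. The deposited tables hold, for each of 131100 transcripts, estimated counts and TPM that the authors obtained with kallisto 0.43.1 and the mouse transcripts of Gencode, on GRCm38.p5 per the submitters' processing notes. How the strand was used is not given in the sources used here. Reads shared between transcripts are divided by the estimation, so values of single transcripts are less certain than gene sums.

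Here estimated counts were summed per gene symbol and rounded to whole numbers. Genes that reached 1 CPM in 3 or more libraries entered edgeR 4.0.16 (R 4.3.3) with TMM factors and a quasi-likelihood F test, with 1 factor of 3 levels over all 9 libraries and Benjamini-Hochberg adjustment over all tested genes. Transcripts were tested in the same way. CPM are TMM-normalised, and SE is the log2 fold change divided by the root of F. Libraries of a condition differed beyond counting noise (chi-square per degree of freedom 5.12 to 10.9), so none was merged. Alternatives were DESeq2 1.42.0, limma-voom (limma 3.58.1), other filters and scalings, counts scaled from TPM, and leaving out each library. The procedure was tested on simulated counts. Positions are from Gencode on GRCm38, and start-site sequences from RefSeq on GRCm38.p6. Profiles were compared on log2 of CPM plus 0.5.

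The lncRNAs and gene lists were chosen with earlier results of these data known. All 10 lncRNAs are described. From each list, up to 3 called genes with the largest absolute change per comparison are named, with the nearest tested genes on each side (5 for Malat1, Neat1 and Snhg1), the tested snoRNA genes inside a host, the 5 genes closest in profile to Malat1 and to Neat1, and BC030870 as a check of the labels. Of the nearest tested genes, 2 are not reported here. Overlapping genes and markers were named beside the results they touch.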

Additional observations from a re-analysis of the deposited data

Results flagged for a closer look

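The response against mock differed between the inserts for 3 of the 9 tested lncRNAs, by the direct comparison of EPR with EPRSTOPE in the edgeR fit. Neat1 was higher in EPR by 1.40 on the log2 scale, with every EPR library above every EPRSTOPE library. Snhg1 was higher in EPR by 1.01 on the log2 scale, and here EPRSTOPE was the condition that left the mock range. Kcnq1ot1 was higher in EPR by 0.51 on the log2 scale, close to the fold threshold. The transgene itself averaged 24.9 ± 1.87 CPM (SD, n = 3) over EPR and 4.24 ± 0.477 over EPRSTOPE, so the inserts were not compared at equal levels. Neat1 and Snhg1 lie on chromosome 19, whose tested genes had a median of 0.55 in the same comparison, and Kcnq1ot1 lies on chromosome 7.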

How the results depend on the processing

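No paired analysis was possible because the library numbers are shared by no 2 conditions. Calls at the fold threshold are the least firm. Requiring a log2 fold change beyond 1 left 1 of the 3 lncRNAs called in EPRSTOPE against mock. Leaving out each library in turn gave 3 to 4 called in EPR against mock, 3 to 5 in EPRSTOPE against mock (5 without EPRSTOPE replicate 211) and 2 to 3 in EPR against EPRSTOPE. The transcript calls ranged from 2 to 6, from 1 to 3 and from 1 to 1 in that order, and in EPRSTOPE against mock they were 0 with limma-voom and 1 with at least 10 counts in every library. As a share of estimated counts, the long Neat1 form differed by 6.68 percentage points in EPR and by -11.4 points in EPRSTOPE against mock, and leaving out a library gave 11.7 to 16.1, -5.29 to -1.11 and, for EPR against EPRSTOPE, 14.5 to 19.2 points of TPM share.

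Scaling by library totals alone shifted the median of all genes by -0.12 in EPRSTOPE against mock. It turned small values negative for Snhg1 (-0.013), Snhg12 (-0.050) and Kcnq1ot1 (-0.053) in EPR and for Neat1 (-0.020) in EPRSTOPE, against mock. Leaving out a library gave -0.024 (without mock replicate 203) to 0.087 for Snhg12 and -0.032 (without mock replicate 204) to 0.055 for Kcnq1ot1 in EPR, and -0.27 to 0.065 (without mock replicate 205) for Snhg8 in EPRSTOPE, and none of these was called. With that scaling the genes called against mock were 1 for nuclear speckle proteins in EPR and in EPRSTOPE, and in EPRSTOPE 6 for 3′ end processing, 5 for nonsense-mediated decay and 5 for other snoRNA hosts; 5 epithelial markers differed between EPR and EPRSTOPE. With limma-voom 1 gene of 3′ end processing differed between EPR and EPRSTOPE. The cause of these shifts was not tested. Shares of all tested genes called under these settings are not given here, so the counts cannot be read as results about the lists. Of 483 values of single lncRNAs under an alternative, 463 kept their direction and their side of the threshold.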
